A study of Homo sapiens with 60 samples.

Results

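The 35 genes described here encode proteins that start S phase, copy DNA and supply nucleotides and chromatin proteins to the replication fork. They were taken by symbol from a list of named genes, out of 37334 genes in the expression table, and all 35 were among the 15263 genes with at least 1 CPM (reads of a gene per 1000000 reads assigned to genes) in at least 3 libraries. RNA was sequenced from SH-SY5Y, a human neuroblastoma cell line of wild-type genotype that can be driven towards a neuron-like state. Cells at passage 39 were differentiated in 15 cm dishes and received lead (Pb) at 0, 0.16, 1.26 or 10 µM from day 5 to the end of the protocol, with new Pb at each change of medium. For every dose, 3 dishes were collected at each of 5 times (days 6, 9, 12, 15 and 18), which gave 20 groups and 60 libraries, and each dish was 1 replicate. All dishes come from 1 line at 1 passage, so the p-values measure the spread between dishes. The groups at 0 µM were differentiated in the same way, and every Pb comparison is made against the 0 µM dishes of the same day. The 3 doses of a day share those dishes, and the later days without Pb share the day 6 dishes.

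DNA replication begins when origins are licensed in G1 by loading of the MCM helicase, for which CDC6 and CDT1 act as loaders and GMNN (geminin) is the inhibitor of CDT1. Cyclin E, encoded by CCNE1 and CCNE2, drives entry into S phase with its kinase partner, and E2F1 is a transcription factor that activates many replication genes once the retinoblastoma protein releases it. At the origin, CDC45 and the GINS complex join MCM to form the active helicase, primase and polymerase alpha lay down primers, and polymerases delta and epsilon extend them on the sliding clamp PCNA. Cells that leave the cycle during neuronal differentiation are known to lower many of these transcripts.

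Many S phase genes carry E2F recognition words close to their start sites, and E2F1 itself is a member. The promoters of 5 members are shown as examples, all of which hold such a word in the window shown. Members without a word are not shown. RefSeq promoters of 300 bases (250 before and 50 after the start, GRCh38.p14) were matched for 33 of the 35 members. The words searched on both strands were TTTCCCGC, TTTGGCGC, TTTCGCGC and TTTGCCGC. Each line gives the 120 bases before the start, 5′ to 3′ on the gene's strand, with a matched word or its reverse complement in capitals.
E2F1: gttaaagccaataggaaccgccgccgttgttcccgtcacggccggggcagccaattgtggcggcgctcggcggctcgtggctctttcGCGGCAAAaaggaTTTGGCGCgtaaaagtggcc
CDT1: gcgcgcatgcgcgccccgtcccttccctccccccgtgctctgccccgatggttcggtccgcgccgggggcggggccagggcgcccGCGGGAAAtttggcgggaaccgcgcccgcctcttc
GINS2: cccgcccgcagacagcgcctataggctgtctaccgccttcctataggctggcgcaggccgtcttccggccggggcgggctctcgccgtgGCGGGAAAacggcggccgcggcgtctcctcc
PCNA: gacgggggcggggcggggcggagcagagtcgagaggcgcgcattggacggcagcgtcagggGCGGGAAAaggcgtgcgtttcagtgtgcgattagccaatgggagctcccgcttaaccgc
TYMS: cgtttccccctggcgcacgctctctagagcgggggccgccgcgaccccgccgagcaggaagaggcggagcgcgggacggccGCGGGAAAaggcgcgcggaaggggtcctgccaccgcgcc

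The 5 windows are those of E2F1 (chr20:33686386-33686505, minus strand), CDT1 (chr16:88803669-88803788, plus), GINS2 (chr16:85688955-85689074, minus), PCNA (chr20:5126623-5126742, minus) and TYMS (chr18:657533-657652, plus). E2F1 held 2 words that did not overlap, and each of the other 4 held 1. Over the full promoters, 15 of 33 members (45.5%) held at least 1 such word, against 614 of 11976 genes kept by the filter (5.1%) and 908 of all 27305 promoters (3.3%). Of 15 mitosis genes with a promoter entry 2 held one (13.3%), and 4 of 4 matched MCM genes did. The members with and without a word covered overlapping ranges of change: between day 6 and day 18 without Pb the median log2 difference was -1.08 for the 15 with a word and -0.93 for the 18 without, and with 10 µM at day 18 it was -0.68 and -0.66. A match is a description of letters in the window and not a measured binding site. Only exact matches were counted, and the PRIM2 window (chr6:57314685-57314804) lies inside its gene (chr6:57221540-57646850). The 2 sets of medians therefore do not compare genes with and without E2F sites. RRM2, TK1 and FEN1, which gave some of the smallest p-values in the comparisons, had no such word in their promoter.

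Library totals ran from 16.59 to 50.54 M reads assigned to genes (M stands for 1000000). In 2 libraries long transcripts were low: against the day's average, the log2 level had a slope of -0.432 for each log10 of exon length in replicate 1 of day 18 at 0 µM. The slope was -0.409 in replicate 3 of day 6 at 10 µM, and the next lowest was -0.174. For comparisons with day 6 or day 18 and for the test of 10 µM by day, leaving them out changed some calls or directions named here. The value without them is then given beside it. Sympathoadrenal markers of the line were present throughout, with 11 of 12 above 1 CPM in all 60 libraries and TH above it in 42, and the blood marker HBB had no read in any library. The names of all day 18 libraries start with a different prefix from those of the other days. What the prefix marks is not given in the sources used here, and a difference between day 18 and an earlier day cannot be told apart from one between the prefixes. In these bulk samples, fewer cycling cells and less RNA per cycling cell cannot be told apart.

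At day 6 without Pb the members covered a wide range of levels. Per kilobase of exon, PCNA (the clamp that tethers polymerases to DNA) was highest with 96.8 ± 3.0 CPM per kb (SD, n = 3), followed by FEN1, the nuclease that trims Okazaki fragment flaps, with 87.1 ± 5.7, and TK1, the thymidine kinase of the salvage pathway, with 86.0 ± 4.2. FEN1 and TK1 did not differ beyond their spread. The lowest were POLE2, a subunit of polymerase epsilon, with 2.0 ± 0.26 CPM per kb, and GINS4, a subunit of the GINS complex, with 1.16 ± 0.14. POLE2 did not differ beyond the spread from POLA2 (2.06 ± 0.037) or CCNE2 (2.15 ± 0.17). Some counts may hold reads of neighbours, because the strand setting of the counting is not given in the sources used here: 39.1% of the exon bases of TYMS overlap ENOSF1 on the other strand, 37.0% of those of CCNE2 overlap INTS8 and 21.2% of those of GINS4 overlap an antisense gene. Genes on the same strand, which no strand setting separates, overlap 35.1% of the exon bases of POLA2, 28.8% of PCLAF, 20.2% of RRM2 and 14.9% of PRIM1. Pseudogene copies of PCNA, RRM2 and DUT exist, and how reads with several matches were treated is not given either.

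Without Pb, the genes changed little from day 6 to day 9 and then fell together by day 12. Their summed level was between 3041 and 3055 CPM in the 3 libraries of day 6, between 2919 and 2931 at day 9, between 1708 and 1747 at day 12, between 1419 and 1517 at day 15 and between 1443 and 1538 at day 18. The groups of days 6 and 9 lay far above those of the later days, and days 15 and 18 overlapped. At day 9, RRM2 was the only member past the threshold (adjusted p under 0.05 with limma over all kept genes; 5 of 35 at an unadjusted p under 0.05). RRM2, the small subunit of ribonucleotide reductase, which makes deoxynucleotides, had 200, 209 and 213 CPM at day 6 and 171, 167 and 167 CPM at day 9, and the groups did not overlap. The log2 difference was -0.30 (SE 0.062, adjusted p = 0.00135). That is 1 of 35 lower, where 2.51% of all tested genes were lower.

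**Figure D1:**
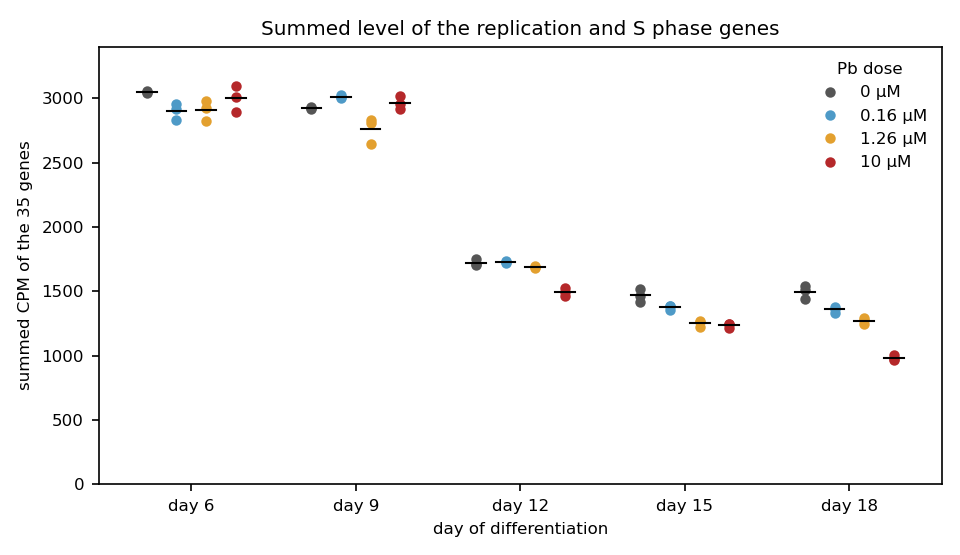
Summed CPM of the 35 genes (vertical axis) in each of the 60 libraries by day of differentiation, coloured by Pb dose, with black bars for group means of 3 libraries. The libraries of days 6 and 9 lie at 2649 CPM or above and all others at 1747 CPM or below, and at day 18 the 10 µM libraries (966.7 to 1006) lie below every other dose.

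At day 12, 34 of the 35 members were lower than at day 6 (34.6% of all genes tested were lower) and GINS4 alone was higher (21.6% of all genes were higher). The median log2 difference of the members was -0.89, against -0.11 over all 15263 genes, a shift of the whole table that median-ratio rescaling brings to -0.007. The smallest p-values were those of POLD1, RRM1 and TK1. POLD1, the catalytic subunit of polymerase delta, had 155, 142 and 133 CPM at day 6 and 59.1, 63.0 and 54.9 CPM at day 12. Every library of day 12 was below every library of day 6, with a log2 difference of -1.26 (SE 0.082, adjusted p = 3.77e-18). The largest p-values were those of SLBP, POLE2 and GMNN, and geminin showed the smallest fall, of 0.21 (SE 0.077, adjusted p = 0.0185).

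The step from day 9 to day 12 held most of the change. In it 33 members were lower (33.7% of all genes) and GINS4 was higher (20.7% of all genes), with POLE2 the exception (log2 difference -0.32, SE 0.15, adjusted p = 0.0658). From day 12 to day 15, 22 members were lower (14.8% of all genes) and DUT was higher (22.3% of all genes). Leaving out the third 0 µM replicate of day 15 gave 13 lower, with 4813 of all genes called in either direction. FEN1, CDC6 and RRM2 gave the smallest p-values of this step. FEN1 had 161, 156 and 153 CPM at day 12 and 111, 108 and 99.2 CPM at day 15, with no overlap (log2 difference -0.56, SE 0.050, adjusted p = 6.85e-13). LIG1, POLD1 and POLE gave the largest p-values of the step, with POLE at 0.001 (SE 0.15). Relative to day 6, 34 members were lower at day 15 (32.2% of all genes) and GINS4 was higher (26.2% of all genes).

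At day 18, 33 members were lower than at day 6 (34.7% of all genes were lower), GINS4 was higher (32.1% of all genes) and DUT did not pass the test. All 33 had every day 18 library below every day 6 library, as did 33.3% of all genes. The members' median log2 difference was -1.03, and that of all genes was -0.03. RRM2, FEN1 and TYMS gave the smallest p-values, and GMNN, POLE2 and DUT the largest.

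Among the S phase entry genes, E2F1 had 56.0, 60.5 and 46.5 CPM at day 6 and 9.43, 9.47 and 10.1 CPM at day 18. The day 18 libraries were all below the lowest day 6 library, at 17.8% of its mean (log2 difference -2.37, SE 0.26, adjusted p = 4.73e-11). CCNE1 fell by 1.5 (SE 0.28) and CCNE2 by 1.22 (SE 0.17).

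Among the licensing genes, CDT1 fell furthest of all members. It had 160, 192 and 160 CPM at day 6, 34.03, 63.3 and 51.4 CPM at day 12, and 16.9, 13.99 and 16.2 CPM at day 18. The 3 days did not overlap, and the day 18 mean was 9.19% of that at day 6 (log2 difference -3.36, SE 0.28, adjusted p = 2.04e-14). CDC6, the partner of CDT1 in loading MCM, fell by 0.94 (SE 0.069), and the CDT1 inhibitor GMNN by 0.32 (SE 0.077).

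Of the helicase activation genes 4 fell and 1 rose. GINS2, a GINS subunit, had 68.8, 63.2 and 68.5 CPM at day 6 and 33.7, 33.5 and 32.4 CPM at day 18, without overlap (log2 difference -0.99, SE 0.087). GINS4, which belongs to the same 4-subunit complex, went the other way. It had 7.01, 5.54 and 6.53 CPM at day 6, 13.1, 11.9 and 12.0 CPM at day 12, and 12.2, 12.5 and 9.52 CPM at day 18. Both later days lay above day 6, with log2 differences of 0.86 (SE 0.13, adjusted p = 2.97e-07) and 0.75 (SE 0.13, adjusted p = 2.97e-06).

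All 4 primase and polymerase alpha genes and all 3 polymerase delta and epsilon genes fell by day 18. PRIM2, the large primase subunit, had 33.0, 38.0 and 37.6 CPM at day 6 and 25.6, 22.0 and 24.8 CPM at day 18, a smaller difference of -0.57 (SE 0.084). The polymerase epsilon catalytic subunit POLE fell by 1.54 (SE 0.15) and POLD1 by 1.11 (SE 0.082).

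Of the clamp and loader genes all 6 fell, with differences from -1.22 for the loader subunit RFC3 to -0.40 for RFC4. PCNA had 137, 145 and 145 CPM at day 6 and 116, 96.7 and 96.5 CPM at day 18, and it stood at 72.4% of its day 6 mean. Both Okazaki fragment genes, FEN1 and the ligase LIG1, fell to 51.7% and 50.8% of their day 6 means.

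In the deoxynucleotide supply group, TYMS, the thymidylate synthase, had 121, 124 and 122 CPM at day 6 and 29.2, 24.1 and 24.1 CPM at day 18. No library overlapped, and the log2 difference was -2.21 (SE 0.12, adjusted p = 2.62e-21). DUT, the dUTPase that keeps uracil out of DNA, had 226, 238 and 278 CPM at day 6, 172, 172 and 162 CPM at day 12, 209, 208 and 207 CPM at day 15, and 240, 210 and 215 CPM at day 18. It was lower at day 12 than at day 6, and at day 18 its libraries overlapped those of day 6 (log2 difference -0.15, SE 0.081, adjusted p = 0.0881). With both libraries left out that were low in long transcripts, it passed as lower (-0.21, adjusted p = 0.0261).

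The chromatin and histone supply genes all fell. UHRF1, which brings the maintenance DNA methyltransferase to replicated DNA, had 191, 186 and 179 CPM at day 6 and 40.4, 64.0 and 67.0 CPM at day 18 (log2 difference -1.72, SE 0.11). The lowest of these values is that of the library low in long transcripts. The chromatin assembly factor subunit CHAF1A fell by 1.24 (SE 0.084), and SLBP, which binds the stem-loop of histone messenger RNA, by 1.06 (SE 0.16).

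**Figure D2:**
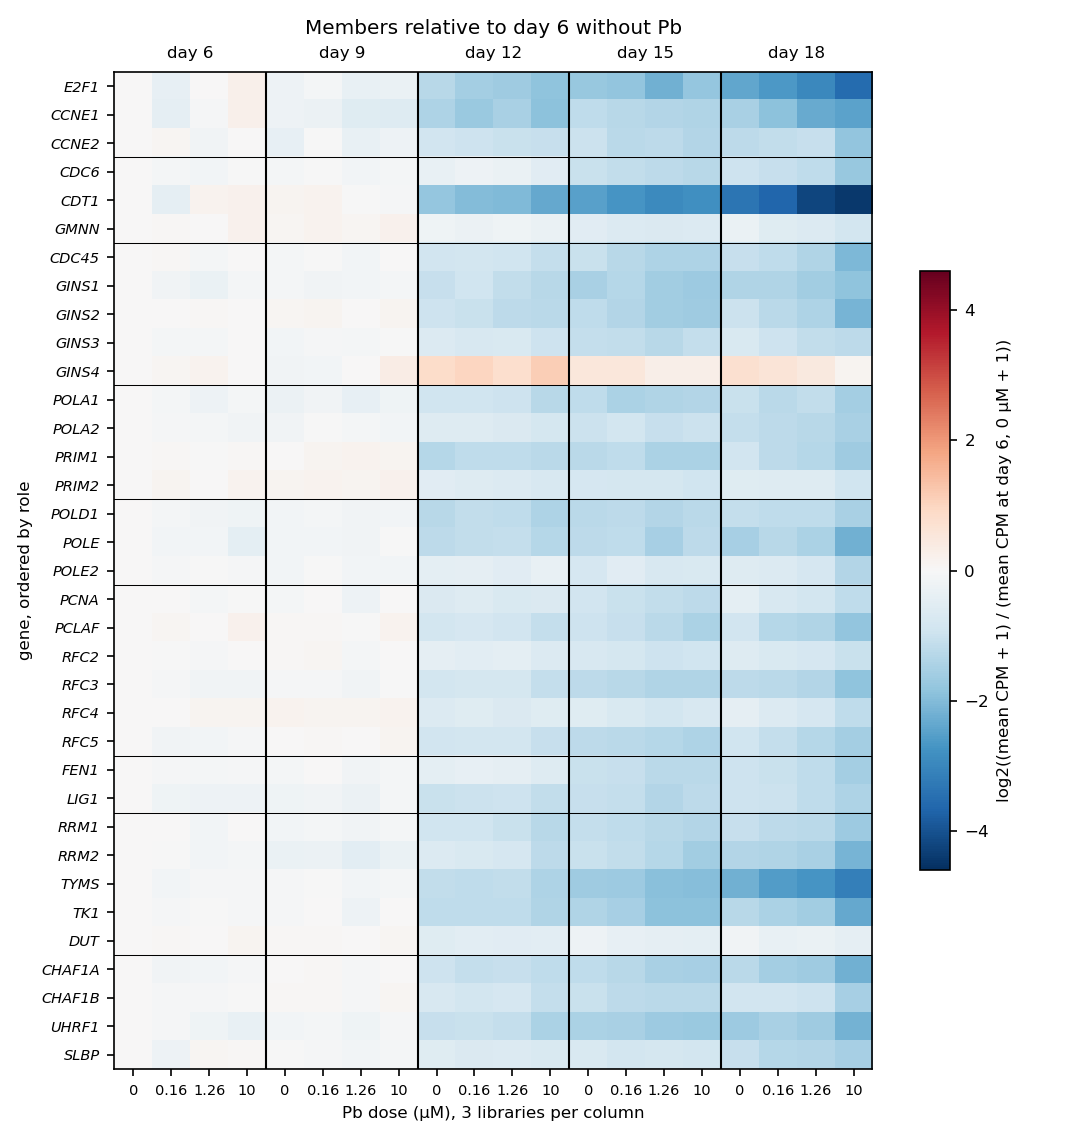
Log2 ratio of each group's mean CPM plus 1 to that of day 6 without Pb for the 35 genes (vertical axis, ordered by role with lines between roles), for the 4 Pb doses within each of 5 days (horizontal axis). Days 12 to 18 are lower than day 6 in nearly all genes, GINS4 is higher, and with 10 µM at day 18 CDT1 stands at 4.02% of its day 6 mean and GINS4 at 111%.

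Between day 15 and day 18 without Pb, 27 of the 35 members did not pass the test. RRM2, TYMS and CDT1 were lower at day 18 (3 of 35, against 14.9% of all genes) and PCNA, GINS3, PRIM1, RFC2 and RFC5 were higher (5 of 35, against 18.4% of all genes). Neither count is above the share of all genes, and they are not read as a result about the members as a set. PCNA went from 82.2, 76.1 and 72.5 CPM to 116, 96.7 and 96.5 CPM, without overlap (log2 difference 0.42, SE 0.070, adjusted p = 1.06e-05). TYMS went from 39.2, 40.7 and 36.8 CPM to 29.2, 24.1 and 24.1 CPM, also without overlap, and fell by 0.58 (SE 0.12, adjusted p = 0.000194). Without replicate 3 of day 18 at 0 µM the counts were 5 lower and 8 higher, without replicate 3 of day 15 at 0 µM 3 were higher, and in a fit of only these groups 1 was higher. Over all genes these fits called 5469, 4030 and 2455 in either direction. With both libraries left out that were low in long transcripts, RFC2 did not pass (adjusted p = 0.0537) and SLBP passed as lower (-0.48, adjusted p = 0.0408). The 2 days also differ in the prefix of their library names.

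With Pb these genes were lower late in the protocol and changed little early on. Exposure ran from day 5 on, so day of differentiation and length of exposure cannot be told apart. At 10 µM the summed level was between 2895 and 3095 CPM at day 6 and between 2921 and 3022 CPM at day 9, within or close to the range at 0 µM. It was between 1463 and 1529 CPM at day 12, between 1214 and 1249 CPM at day 15 and between 966.7 and 1006 CPM at day 18. At each of these 3 later days all 10 µM libraries were below all 0 µM libraries.

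At day 6, 1 day after the first exposure, no member passed the threshold at 10 µM by limma or by edgeR. By adjusted p, 0.655% of all genes were called in either direction. At an unadjusted p under 0.05 there were 7 members, a count that cannot be set against that share. POLE and UHRF1 gave the smallest p-values, with log2 differences of -0.48 (SE 0.15, adjusted p = 0.107) and -0.36 (SE 0.11, adjusted p = 0.109). UHRF1 had 160, 170 and 110 CPM at 10 µM, and POLE had 46.6, 39.3 and 24.9 CPM. The lowest value of each is that of the day 6 library low in long transcripts, and with both such libraries left out the differences were -0.23 for POLE (adjusted p = 0.713) and -0.17 for UHRF1 (adjusted p = 0.558). Without replicate 1 of day 6 at 10 µM 2 members were lower, and without replicate 2 of it 1 was. Over all genes these fits called 1061 and 389 in either direction.

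At day 9 and 10 µM, GINS4 was the only member past the threshold, and it was higher (1 of 35, against 0.446% of all genes). It had 5.00, 6.68 and 5.05 CPM at 0 µM and 9.19, 8.28 and 7.47 CPM at 10 µM. The groups did not overlap, and the log2 difference was 0.51 (SE 0.13, adjusted p = 0.0309). It did not pass with edgeR, with no filter on low values, in a fit of only these groups, or without replicate 1 or 3 of 0 µM or replicate 1 or 2 of 10 µM.

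At day 12 and 10 µM, 7 members were lower (2.34% of all genes were lower): RRM2, RRM1, CHAF1B, POLA1, UHRF1, GINS2 and RFC2. RRM2 had 135, 129 and 139 CPM at 0 µM and 88.7, 90.3 and 89.2 CPM at 10 µM. The groups stood well apart, with a log2 difference of -0.58 (SE 0.062, adjusted p = 6.98e-09). RRM1, the large subunit of the same enzyme, had 89.4, 99.2 and 93.2 CPM at 0 µM and 72.04, 71.3 and 72.8 CPM at 10 µM, also without overlap (log2 difference -0.38, SE 0.061, adjusted p = 4.39e-05). POLE2, POLE and PCNA gave the largest p-values. PCNA had 94.4, 84.8 and 92.2 CPM at 0 µM and 86.4, 87.6 and 94.0 CPM at 10 µM, with overlapping groups. The count of 7 was 4 in a fit of only these groups, 3 without replicate 1 or 3 of 0 µM or replicate 2 or 3 of 10 µM, and 4 without replicate 2 of 0 µM. Over all genes the fit of only these groups called 480 in either direction, and those without the libraries named here called 438 to 656.

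At day 15 and 10 µM, 11 members were lower (3.18% of all genes were lower). They were RRM2, TK1, GINS2, PCLAF, CDC45, FEN1, PCNA, CHAF1A, RRM1, CDC6 and RFC2. RRM2 had 105, 99.1 and 103 CPM at 0 µM and 69.0, 67.7 and 68.0 CPM at 10 µM, without overlap (log2 difference -0.58, SE 0.062, adjusted p = 5.39e-09). TK1 had 63.0, 60.5 and 58.6 CPM at 0 µM and 43.2, 40.6 and 45.0 CPM at 10 µM (log2 difference -0.49, SE 0.081, adjusted p = 3.97e-05). GINS3, POLE and POLD1 gave the largest p-values, and POLD1 had overlapping groups and a log2 difference of -0.001 (SE 0.082). In a fit of only these groups 4 members were lower, and 355 of all genes were called in either direction.

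**Figure D3:**
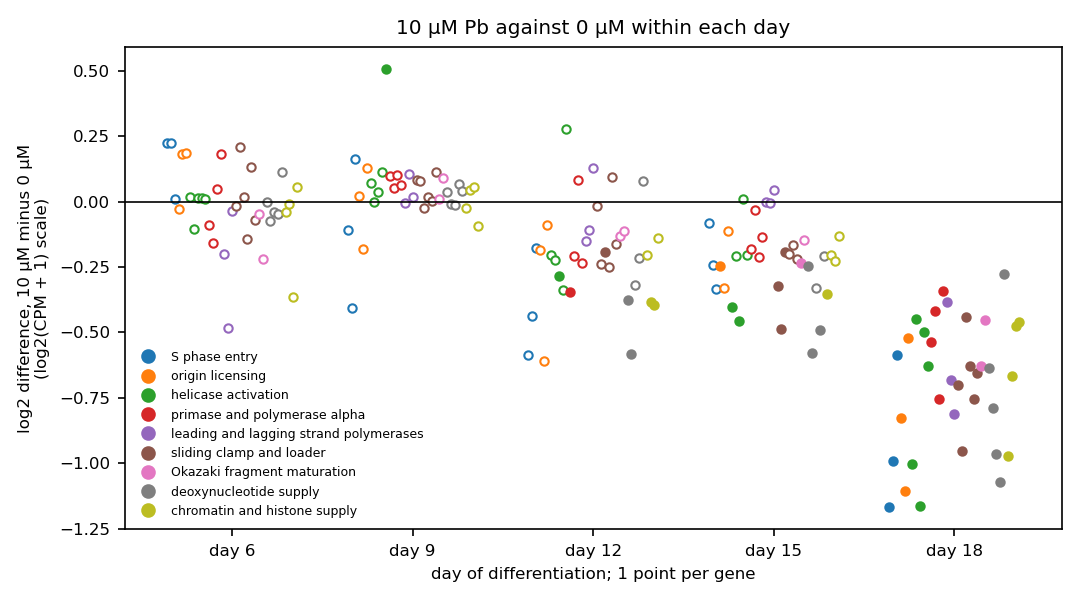
Log2 difference between 10 µM and 0 µM Pb (vertical axis, log2(CPM + 1) scale) at each day of differentiation, 1 point per gene, coloured by role, with filled points for genes past the threshold. No point is filled at day 6 and 1 at day 9 (GINS4, above 0), 7 at day 12, 11 at day 15 and all 35 at day 18, where all lie between -1.17 and -0.28.

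At day 18 and 10 µM all 35 members were lower, where 16.9% of all genes were lower. The median log2 difference was -0.66, against -0.06 over all genes, and the members ranged from -1.17 for E2F1 to -0.28 for DUT. In 34 of 35, no 10 µM library reached the lowest 0 µM library (22.1% of all genes were lower without overlap), and UHRF1 was the exception. GINS2, TK1 and RRM2 gave the smallest p-values, and DUT, POLA2 and SLBP the largest. The count was 27 in a fit of only these 2 groups, and 33 with both libraries left out that were low in long transcripts.

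In the S phase entry group, E2F1 had 9.43, 9.47 and 10.1 CPM at 0 µM and 3.23, 4.07 and 3.99 CPM at 10 µM. The groups were well apart, with a log2 difference of -1.17 (SE 0.26, adjusted p = 0.0005). CCNE1 had 5.22, 5.69 and 7.47 CPM at 0 µM and 1.78, 3.92 and 2.28 CPM at 10 µM, a log2 difference of -0.99 (SE 0.28, adjusted p = 0.0056). Of the licensing genes, CDT1 had 16.9, 13.99 and 16.2 CPM at 0 µM and 5.33, 6.497 and 8.79 CPM at 10 µM. Its highest 10 µM library was below its lowest 0 µM library (log2 difference -1.11, SE 0.28, adjusted p = 0.00257), and CDC6 fell by 0.83 (SE 0.069).

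In the helicase activation group, GINS2 had 33.7, 33.5 and 32.4 CPM at 0 µM and 14.3, 13.7 and 14.8 CPM at 10 µM. No library came near the other group, and the log2 difference was -1.16 (SE 0.087, adjusted p = 8.35e-15). CDC45 fell by 1.00 (SE 0.085). GINS4, the member that rose during differentiation, had 12.2, 12.5 and 9.52 CPM at 0 µM and 6.10, 6.31 and 8.74 CPM at 10 µM, lower at 10 µM without overlap (log2 difference -0.63, SE 0.13, adjusted p = 0.000273).

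The 7 primase and polymerase genes ranged from -0.81 for POLE2 to -0.34 for PRIM2. PRIM2 had 25.6, 22.0 and 24.8 CPM at 0 µM and 20, 18.7 and 17.7 CPM at 10 µM, without overlap (log2 difference -0.34, SE 0.084, adjusted p = 0.00168). POLD1 had 62.1, 75.1 and 61.1 CPM at 0 µM and 53.0, 43.8 and 54.4 CPM at 10 µM, also without overlap (log2 difference -0.39, SE 0.082, adjusted p = 0.000331). POLE2 fell by 0.81 (SE 0.15) from a mean of 3.601 to 1.69 CPM.

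Of the clamp, loader and Okazaki genes, PCNA had 116, 96.7 and 96.5 CPM at 0 µM and 64.9, 63.4 and 60.2 CPM at 10 µM (log2 difference -0.70, SE 0.070, adjusted p = 4.57e-11). FEN1 had 112, 110 and 112 CPM at 0 µM and 73.8, 67.9 and 73.5 CPM at 10 µM (log2 difference -0.63, SE 0.050, adjusted p = 4.54e-14). Neither gene's groups overlapped. PCLAF, a PCNA-binding factor, fell by 0.95 (SE 0.099), and the 4 RFC genes of the clamp loader by 0.44 to 0.75.

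In the deoxynucleotide supply group, TK1 had 72.9, 66.1 and 57.6 CPM at 0 µM and 30.9, 28.1 and 32.8 CPM at 10 µM, without overlap (log2 difference -1.07, SE 0.081, adjusted p = 1.21e-14). RRM2 had 74.9, 89.5 and 80.4 CPM at 0 µM and 45.7, 47.7 and 46.7 CPM at 10 µM (log2 difference -0.79, SE 0.062, adjusted p = 4.54e-14). DUT had 240, 210 and 215 CPM at 0 µM and 193, 201 and 158 CPM at 10 µM, a smaller gap (log2 difference -0.28, SE 0.081, adjusted p = 0.00765). Its call was lost with median-ratio rescaling, in a fit of only these groups, and when both libraries low in long transcripts were left out (adjusted p = 0.0559).

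Of the chromatin and histone supply genes, CHAF1A fell by 0.97 (SE 0.084) and UHRF1 by 0.47 (SE 0.11). UHRF1 had 40.4, 64.0 and 67.0 CPM at 0 µM and 37.9, 40.6 and 41.1 CPM at 10 µM, and the overlap comes from the 0 µM library low in long transcripts. With both such libraries left out, the log2 difference of UHRF1 was -0.70 (adjusted p = 8.14e-10). SLBP had 54.7, 40.9 and 43.2 CPM at 0 µM and 35.6, 33.8 and 30.1 CPM at 10 µM (log2 difference -0.46, SE 0.16, adjusted p = 0.0293). Its call was lost with no filter, with median-ratio rescaling and without the same 2 libraries (adjusted p = 0.19 without them).

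**Figure D4:**
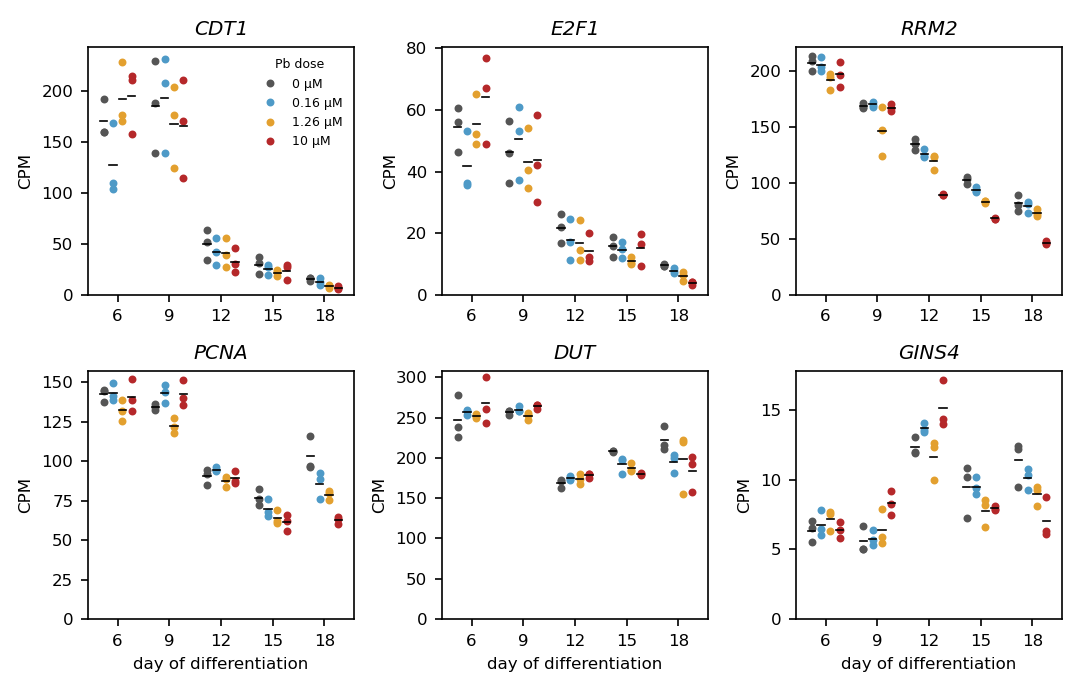
CPM (vertical axes, from 0) of CDT1, E2F1, RRM2, PCNA, DUT and GINS4 in each library by day of differentiation (horizontal axes), coloured by Pb dose, with black bars for means of 3 libraries. RRM2 at 10 µM lies apart from 0 µM from day 12 on, PCNA at day 18 steps down with dose from a mean of 103 to 62.8 CPM, and GINS4 is higher at day 12 than at day 6.

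The lower doses changed fewer members, and again late. At 0.16 µM no member passed at days 6, 9, 12 or 15 by limma or edgeR. By adjusted p, 0, 0.0131, 0.0197 and 0.0131% of all genes were called in either direction at these days. At an unadjusted p under 0.05, 2, 1, 0 and 4 of 35 members passed. At day 18, PCLAF, PCNA, CHAF1A, PRIM1 and GINS2 were lower (5 of 35, against 1.15% of all genes). With both libraries left out that were low in long transcripts, none of them passed. Their adjusted p-values by limma were then 0.0744, 0.278, 0.142, 0.193 and 0.217 in that order. PCNA had 76.2, 88.8 and 92.5 CPM at 0.16 µM, below the 3 libraries of 0 µM (log2 difference -0.26, SE 0.070, adjusted p = 0.023, and -0.17 with both libraries left out). None passed without replicate 1 of 0 µM, which is the library low in long transcripts, or without replicate 1 of 0.16 µM, and none in a fit of only these groups. Without replicate 3 of 0 µM 10 were lower and 1 higher, and without replicate 2 of 0.16 µM 1 was lower. Over all genes these fits called 4, 159, 0, 2481 and 35 in either direction, in the order given. The counts of members thus moved together with those of the whole table.

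At 1.26 µM no member passed at days 6, 9 or 12 by limma or edgeR, although 1 was lower at day 9 without replicate 1 of 1.26 µM. By adjusted p, 0, 0.4 and 0.0459% of all genes were called in either direction at these days. At an unadjusted p under 0.05, 5, 3 and 2 members passed. At day 15, TK1, GINS2, RRM2, CDC45, FEN1, LIG1 and PCNA were lower (7 of 35, against 0.93% of all genes). TK1 gave the smallest p-value, with a log2 difference of -0.49 (SE 0.081, adjusted p = 0.00024). The count was 3 without replicate 1 of 0 µM, 4 without replicate 2 or 3 of 1.26 µM, and 1 in a fit of only these groups. Over all genes these fits called 68, 90, 65 and 13 in either direction.

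At day 18 and 1.26 µM, 18 members were lower (3.28% of all genes were lower). PCNA, RFC5 and CHAF1A gave the smallest p-values and UHRF1, POLE and PRIM2 the largest. PCNA had 80.0, 80.8 and 75.1 CPM, all below 0 µM (log2 difference -0.38, SE 0.070, adjusted p = 0.000958). CDT1 had 6.49, 8.78 and 9.66 CPM, also all below 0 µM (log2 difference -0.86, SE 0.28, adjusted p = 0.0385, and 0.169 with both libraries left out that were low in long transcripts). UHRF1 had log2 differences of 0.23 at 0.16 µM and 0.07 at 1.26 µM, which were -0.002 and -0.16 with both libraries left out, and it passed in none of these fits. RRM2 had 70.4, 71.9 and 76.6 CPM and overlapped 0 µM (log2 difference -0.16, SE 0.062, adjusted p = 0.0899). The count was 9 with both libraries left out that were low in long transcripts, 5 without replicate 1 of 0 µM, 11 without replicate 2 of 1.26 µM and 0 in a fit of only these groups (24 at an unadjusted p under 0.05 in the fit of all libraries, and 20 with edgeR). Over all genes, the fits with 9, 5, 11 and 0 members called 583, 76, 1223 and 0 in either direction.

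Group means stepped down with every dose at day 18 for 28 of the 35 members (15.0% of all genes did so). The exceptions were CCNE2, GINS1, POLA1, PRIM2, POLE, DUT and UHRF1. The number was 3 at day 6 (7.13% of all genes), 1 at day 9 (5.56%), 7 at day 12 (7.19%) and 16 at day 15 (8.74%). The summed level at day 18 followed the same order without overlap, with 1443 to 1538 CPM at 0 µM, 1332 to 1380 at 0.16 µM, 1245 to 1291 at 1.26 µM and 966.7 to 1006 at 10 µM. The counts above were not recomputed without the 2 libraries low in long transcripts. By log2 differences at day 18 without them, GINS1 (-0.06, -0.27, -0.53) and UHRF1 (-0.002, -0.16, -0.70) did step down with dose. RFC3 (0.07) and CHAF1B (0.03) were then above 0 at 0.16 µM and did not.

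**Figure D5:**
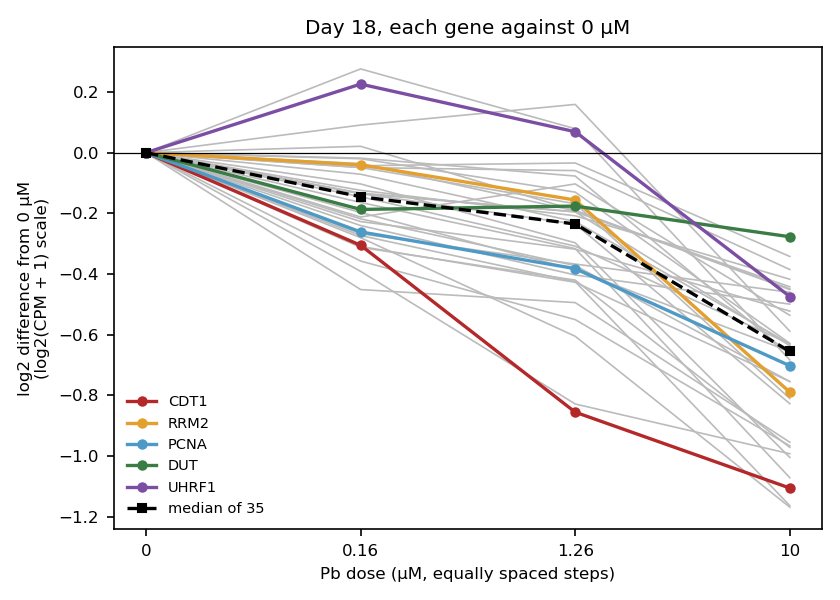
Log2 difference from 0 µM at day 18 (vertical axis, log2(CPM + 1) scale) for each of the 35 genes (grey) over the Pb doses in equally spaced steps (horizontal axis), with CDT1, RRM2, PCNA, DUT and UHRF1 in colour and the median dashed. The median goes to -0.15, -0.24 and -0.66, RRM2 reaches -0.16 at 1.26 µM and -0.79 at 10 µM, and UHRF1 lies above 0 at the lower doses but not with both libraries left out that were low in long transcripts (-0.002 and -0.16).

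As a mean of the 5 within-day differences, no member passed at 0.16 µM by limma or edgeR (6 at an unadjusted p under 0.05). By adjusted p, 0.124% of all genes were called in either direction. At 1.26 µM 15 were lower (2.17% of all genes), led by RRM2, PCNA and GINS2. At 10 µM 28 were lower (8.13% of all genes), led by RRM2 with -0.41 (SE 0.028, adjusted p = 8.53e-16), TK1 and GINS2. The 7 that did not pass were CCNE2, PRIM2, GMNN, SLBP, POLE2, DUT and GINS4. The mean slope over dose steps was negative and passed for 29 members (8.39% of all genes). Day 18 weighed on these means: without it 7 members were lower at 1.26 µM, 15 at 10 µM and 19 by slope. Without day 18 the 10 µM mean of PRIM1 went from -0.15 to 0.006 and that of RFC4 from -0.14 to 0.016.

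The 10 µM difference itself varied between days for 28 members by the moderated F test of 10 µM by day (21.7% of all genes passed), and the differences of all doses varied for 25 members (11.8% of all genes). GINS2 gave the smallest p-value of the former (adjusted p = 3.39e-10), followed by TK1 and RRM2, and UHRF1, CCNE2, CDT1, GINS1, CCNE1, POLA2 and SLBP did not pass. With both libraries left out that were low in long transcripts, UHRF1 (adjusted p = 5.8e-06) and GINS1 (0.0416) passed, and E2F1 (0.0835) and DUT (0.0789) did not. Without day 18 the counts were 10 and 6. RRM2 had log2 differences at 10 µM of -0.01 at day 9, -0.58 at day 12, -0.58 at day 15 and -0.79 at day 18. GINS2 had 0.04, -0.29, -0.46 and -1.16 at the same days, and PCNA had 0.08, -0.02, -0.32 and -0.70. GINS4 had 0.51, 0.28, -0.21 and -0.63.

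Other genes of the replication pathway and of the cell cycle were read in the same fit. In it, 34.7% of all genes were lower and 32.1% higher at day 18 than at day 6. With 10 µM at day 18, 16.9% were lower (2578 of 15263 genes, where 4418 were called in either direction). Of the 6 MCM genes all fell between day 6 and day 18 and all were lower with 10 µM at day 18, where MCM5 had a log2 difference of -0.97 (SE 0.054) and MCM7 of -0.88 (SE 0.049). Of the 6 origin recognition genes 3 fell over time and 3 were lower with 10 µM at day 18, with ORC6 at -0.90 (SE 0.085) and ORC1 at -1.21 (SE 0.12). With 6 genes, a count of 3 over time is not far from the share of all genes. Of 28 other replication factors 25 fell and 2 rose over time, and 19 were lower with 10 µM at day 18, led by CLSPN and ASF1B.

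The regulators were more mixed. Of 12 E2F and pocket protein genes 10 fell over time, while with 10 µM at day 18 E2F8 and E2F4 were lower and RB1, the retinoblastoma protein, was higher (log2 difference 0.57, SE 0.18, adjusted p = 0.0128). As 16.9% of all genes were lower in that comparison, these single calls are not read as a result about the list. The alternative fits were read for the 35 members only, so the call of RB1 was not checked in them. Of 8 tested G1 and S cyclins and kinases all fell over time and 7 were lower with 10 µM at day 18. Of 7 inhibitors of cyclin-dependent kinases 3 fell and 2 rose over time, shares close to the 34.7% and 32.1% of all genes, and with 10 µM at day 18 3 were lower and CDKN1A, the p21 inhibitor, was higher. CDKN1A had 247, 238 and 245 CPM at 0 µM and 359, 380 and 381 CPM at 10 µM, without overlap (log2 difference 0.62, SE 0.080, adjusted p = 4.28e-08).

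Of 19 tested mitosis genes all fell between day 6 and day 18 (34.7% of all genes were lower). With 10 µM Pb 18 were lower at day 12, 17 at day 15 and 17 at day 18, with median log2 differences of -0.45, -0.54 and -0.60. The shares of all genes lower at these days were 2.34, 3.18 and 16.9%. The replication and S phase genes had 7, 11 and 35 of 35 lower at the same days, with medians of -0.21, -0.21 and -0.66. The difference between the 2 lists was not tested.

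Cell type markers, including those of the line itself, moved with some of these comparisons. Of the mesenchymal markers, VIM, COL3A1, FN1, TWIST1 and SNAI2 were above 1 CPM in all 60 libraries, COL1A1 in 57, COL1A2 in 4 and PRRX1 in none. The summed level of 8 mesenchymal markers at day 18 was between 227.4 and 240.0 CPM at 0 µM and between 162.6 and 169.6 CPM at 10 µM. Of 7 tested, 3 were lower (16.9% of all genes were lower). At day 12, 4 of 7 were lower with 10 µM (2.34% of all genes were lower), with a median log2 difference of -0.75. Of the 12 sympathoadrenal markers 7 were lower and 1 higher with 10 µM at day 18 (16.9% of all genes were lower). Their summed levels were 16870 to 18340 CPM at 0 µM and 16710 to 17560 CPM at 10 µM. The summed level of 10 epithelial and blood markers was between 1.313 and 2.732 CPM at day 6 and between 48.25 and 72.43 CPM at day 18 without Pb, mainly from KRT5 and KRT14, and between 44.85 and 56.85 CPM with 10 µM at day 18. Their part in the differences of the replication genes was not tested.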

How the data were processed

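The deposited table holds CPM of 60 libraries, and the authors' aligner and counter are STAR and featureCounts on GRCh38, per the submitters' processing notes. Versions, annotation and strand setting are not given in the sources used here. Every column summed to 1000000, and 100% of values were whole multiples of 1 read within 0.01 read (largest deviation 0.00014), so whole reads were recovered. A count of 3 reads equals 0.0594 to 0.1808 CPM, and such floors cover counting error only. Values were analysed as log2(CPM + 1), which understates changes of low genes, with limma 3.58.1 in R 4.3.3 (20 group means, intensity trend, 40 residual degrees of freedom). Tests were two-sided, and p-values were adjusted by Benjamini-Hochberg over 15263 genes. Shares of all genes called are at adjusted p. Counts of members at an unadjusted p have no share of all genes beside them and are not read as a result. Errors beside log2 differences are standard errors. On these reads, the quasi-likelihood test of edgeR 4.0.16 called 4072 genes for 10 µM at day 18, against 4418 with limma. Both models were also run on simulated counts with 1 mean per gene over all groups, a fixed spread and genes changed in 1 group only. That setting is simpler than these data, so it is no check of the results given here. Exon lengths and overlaps are from GENCODE v29 and promoters from RefSeq. Members named with every library are the highest of each of 9 roles and those going against the majority, plus the 3 smallest and 3 largest p-values per comparison. Further members were named after their values were seen. The members and lists were chosen with earlier results of these data known.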

Additional observations from a re-analysis of the deposited data

Results flagged for a closer look

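The difference between 10 µM and 0 µM Pb depended on the day for 28 of the 35 genes, and the differences of all doses depended on it for 25, each by a moderated F test of the difference between days with limma over all kept genes (21.7% and 11.8% of all genes passed). Among the genes described library by library, the adjusted p-values of the 10 µM test were 3.39e-10 for GINS2, 5.91e-09 for FEN1 and 8.04e-08 for PCNA, which were lower at days 15 and 18 and passed at neither day 6 nor day 9. They were 7.87e-05 for GINS4, higher at day 9 and lower at day 18, and 0.0041 for PRIM2, 0.0163 for DUT, 0.025 for E2F1 and 0.0472 for POLD1, all of which passed within a day only at day 18. With both libraries left out that were low in long transcripts, the values for E2F1 and DUT were 0.0835 and 0.0789. The library names of day 18 carry a prefix of their own, and each Pb difference was taken within a day. Length of exposure rose with the day, and their parts cannot be told apart.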

How the results depend on the processing

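Counts of members past the threshold were recomputed under 9 alternative settings (387 counts, of which 18 moved by over 1.5 times) and with 1 library left out (654 counts, 26 moved). Between day 15 and day 18 without Pb, 6 members were lower with median-ratio rescaling and 6 with edgeR, and 1 was higher when just the compared groups were fitted. That smaller fit gave 0 lower for 0.16 µM at day 18, 1 for 1.26 µM at day 15, 0 for 1.26 µM at day 18, 4 for 10 µM at day 12, 4 for 10 µM at day 15, and 0 higher for 10 µM at day 9, which was also 0 with no filter and 0 with edgeR. Over all genes the smaller fit called 0, 13, 0, 480, 355 and 80 in either direction in these comparisons, so where it called 0 genes no member could pass. Without the 2 libraries low in long transcripts the counts at day 18 were 0 for 0.16 µM and 9 for 1.26 µM (117 and 583 of all genes called). Without day 18 they were 7 for the mean of 1.26 µM, 15 for the mean of 10 µM, 19 for the slope, 10 for 10 µM by day and 6 for all doses by day. Of all genes 247, 1497, 1643, 825 and 419 were called, in the same order. The mean of RFC4 turned sign without day 18 (0.016 at 10 µM and 0.002 for the slope), as did that of PRIM1 (0.006). The smaller fit was not run for the slope and all doses by day, which use all groups. The causes were not tested.

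With 1 library left out, the counts ran from 33 to 34 lower at day 12, 33 to 34 at day 15 and 33 to 34 at day 18 against day 6, 32 to 33 from day 9 to 12, 13 to 20 from day 12 to 15, and 2 to 5 lower and 3 to 8 higher from day 15 to 18. For 0.16 µM at day 18 they ran from 0 to 10 lower and 0 to 1 higher. For 1.26 µM they ran from 0 to 1 at day 9, 3 to 8 at day 15, 5 to 19 at day 18 and 12 to 18 for the mean. For 10 µM they ran from 0 to 2 at day 6, 0 to 1 higher at day 9, 3 to 5 at day 12, 8 to 10 at day 15, 32 to 35 at day 18 and 24 to 28 for the mean. They ran from 26 to 31 for the slope, 27 to 29 for 10 µM by day and 22 to 26 for all doses by day. The number of all genes called also moved with the library left out. For 0.16 µM at day 18 it was 4 without replicate 1 of 0 µM and 2481 without replicate 3 of 0 µM.

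Over all kept genes, deviations of same-numbered libraries of a day had a median correlation of 0.015 (-0.356 to 0.532 over 90 pairs). For different numbers it was 0.004 (-0.473 to 0.499 over 180 pairs). Single members can still share a pattern: at day 12 replicate 2 was the highest of its group at every dose for E2F1 and CDT1. The block below gives each replicate number 1 effect over all days, so it cannot decide whether dishes were paired within a day. With the replicate number as a block, 20 members were lower from day 12 to 15, 4 from day 15 to 18, 4 for 0.16 µM at day 18, 8 for 10 µM at day 12 and 28 by slope, 27 passed for 10 µM by day, and the other counts were as without it. Depth limits the low members: POLE2 and CCNE2 lay near 2 CPM with 10 µM at day 18.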
